A study of Mus musculus with 12 samples.

Results

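The genes described here are 10 transcriptional targets of p53 and genes of cell cycle arrest, taken by name from the array's annotation: Mdm2, Ccng1, Trp53inp1, Sesn1, Phlda3, Zmat3, Gadd45a, Cdkn1a, Btg2 and Cdkn1b. They are 10 of 24185 gene symbols on the array, and all 10 were among the 13860 genes that passed the background filter. They are read by 14 probes, each of them clearly detected throughout at least 1 of the conditions. p53 is a transcription factor that cells activate under DNA damage and other stresses. Its targets include genes that hold p53 itself in check, genes that stop the cell cycle and genes that limit growth or promote death. Several of these genes also have inputs other than p53, and Cdkn1b, which encodes the inhibitor p27, is an arrest gene that is mostly controlled outside the p53 pathway. In macrophages, Cdkn1a is also known to respond to inflammatory stimuli.

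The cells were RAW264.7, a macrophage-like line of the mouse transformed by Abelson murine leukaemia virus, cultured for 24 h in 4 conditions with 3 arrays each. The condition labelled NS had neither addition, HS had 40 mM added NaCl, NS+LPS had 10 ng/ml LPS, the bacterial outer membrane component sensed by Toll-like receptor 4, and HS+LPS had both. The labels do not spell out these abbreviations; the study's title speaks of high salt, and NS is taken here as medium with no NaCl added. Whether the 3 arrays of a condition stem from different cultures is not stated, and the spread behind each p-value may therefore be technical. Whole cultures were measured, so fewer cells expressing a gene and less RNA per cell cannot be told apart.

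Each level is given as the probe's signal divided by the 75th percentile of its array, which removes differences in overall brightness. That percentile was 725 ± 74.0 intensity units for NS, 634 ± 21.5 for HS, 628 ± 6.84 for NS+LPS and 428 ± 15.3 for HS+LPS (SD, n = 3 each). The number of arrays limits the precision of every value. A single slide carried NS, HS and 2 of the NS+LPS arrays, another carried NS+LPS array 3, and the HS+LPS arrays were read on a separate slide on another day. Slide and day of reading therefore cannot be told apart from the condition wherever HS+LPS is compared. Of 7 macrophage markers on the array, 6 were well above background on all arrays and Mertk on none, and their summed level lay between 662 and 738 for HS, 682 and 719 for NS, 569 and 602 for NS+LPS, and 741 and 781 for HS+LPS. These markers did not move together: with salt under LPS, Adgre1 and Cd68 were called lower (log2 differences -0.51 and -0.18). Csf1r, Lyz2 and Itgam were called higher there (0.60, 0.49 and 0.25), and Ptprc was not called. None of 4 epithelial markers was above background on any array. Of 4 T cell markers Cd3e was above it on all 12 arrays, Cd8a on 2, Cd3d on 1 and Cd8b1 on 0, and of 3 endothelial markers Kdr and Pecam1 were on all 12 and Cdh5 on 1. Of 4 fibroblast markers Col1a2 was above background on 9 arrays and the others on at most 1, and of 3 B cell markers Cd79a was on 9 and the others on 0. Of 3 neutrophil markers, Ly6g and S100a9 were above it on 0 arrays and S100a8 on 10, with log2 differences of 3.52 for LPS alone and -1.03 for salt under LPS. The part of these shifts in the results below was not tested.

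Cdkn1a encodes p21, the cyclin-dependent kinase inhibitor best known for p53-dependent arrest, and Ccng1 encodes cyclin G1. RefSeq's promoter windows for GRCm38.p6 run from 250 bases before a transcription start to 50 bases after it. Those of both genes are shown because they hold the closest matches to the p53 binding consensus among the windows searched. The consensus half-site, which reads the same on both strands, was found in 8.36% of all 32817 windows. A full site, here a pair of half-sites at most 13 bases apart, was found in 0.0731% of them, and in 1.09% when 1 mismatch was allowed, a rule added after the data were seen. Windows were found for 8 of the 10 genes, Trp53inp1 and Zmat3 being the exceptions, and of their 10 windows 5 held a half-site, 1 a full site and 2 a full site with at most 1 mismatch. Capitals mark the matches below, and each window is written along the gene's own strand.
Cdkn1a, upstream start, chr17:29090729-29091028, plus strand: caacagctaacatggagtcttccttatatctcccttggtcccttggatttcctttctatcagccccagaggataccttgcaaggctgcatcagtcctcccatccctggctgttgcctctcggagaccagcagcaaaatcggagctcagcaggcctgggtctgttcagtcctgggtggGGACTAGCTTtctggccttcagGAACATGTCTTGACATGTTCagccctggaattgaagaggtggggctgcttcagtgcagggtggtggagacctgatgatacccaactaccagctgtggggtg
Cdkn1a, downstream start, chr17:29093519-29093818, plus strand: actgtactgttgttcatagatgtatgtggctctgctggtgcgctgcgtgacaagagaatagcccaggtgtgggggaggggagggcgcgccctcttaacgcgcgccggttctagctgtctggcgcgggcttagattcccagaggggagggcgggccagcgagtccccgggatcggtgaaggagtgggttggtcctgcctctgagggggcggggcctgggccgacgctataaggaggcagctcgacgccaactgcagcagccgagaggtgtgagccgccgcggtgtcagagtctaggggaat
Ccng1, chr11:40755237-40755536, minus strand: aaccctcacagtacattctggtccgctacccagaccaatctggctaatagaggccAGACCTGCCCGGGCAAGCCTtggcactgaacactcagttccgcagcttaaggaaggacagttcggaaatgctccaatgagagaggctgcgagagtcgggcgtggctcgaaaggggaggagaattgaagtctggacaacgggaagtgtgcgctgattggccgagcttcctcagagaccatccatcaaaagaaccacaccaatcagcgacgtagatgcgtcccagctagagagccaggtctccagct

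In the upstream Cdkn1a window the full match ran from position -73 to -42 relative to the start, with a 12-base spacer and no mismatch. Its second half-site overlapped another pair, from -51 to -32, that had no spacer and 1 mismatch. The downstream Cdkn1a window, whose start lies 2790 bases further along, held no match. The Ccng1 match, from -195 to -176, had 1 mismatch and no spacer. Single half-sites were found in the window of Mdm2 (GAACTTGCCT, first base at -186), in 1 of the Sesn1 windows (AAGCTTGTTT, at -173) and in that of Gadd45a (GGGCTAGCCC, at -40). No match was found in the windows of Phlda3, Btg2 and Cdkn1b. These matches describe the letters in the windows, and binding was not measured.

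Without LPS, the 10 genes differed in how they moved with added salt. In HS, 3 genes rose (Btg2, Sesn1 and Cdkn1b), 1 fell (Ccng1) and 6 did not pass the test. Over all 13860 genes tested, 18.2% were called higher and 18.8% lower in this comparison, 37% in either direction, so 4 of 10 is near the background. The median log2 difference of the 10 genes was 0.024, against 0.017 for all genes. With LPS present, 9 of the 10 rose with added salt and 1, Gadd45a, fell, where 26.2% of all genes were called higher and 31.4% lower, 57.5% in either direction. The median log2 difference of the 10 genes was then 0.98, against -0.043 for all genes. The 10 genes were chosen with earlier results of these data known, so this contrast with all genes is a description. In all 10 genes the 3 HS+LPS arrays did not overlap the 3 NS+LPS arrays, which was also so for 64.2% of all genes.

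**Figure D1:**
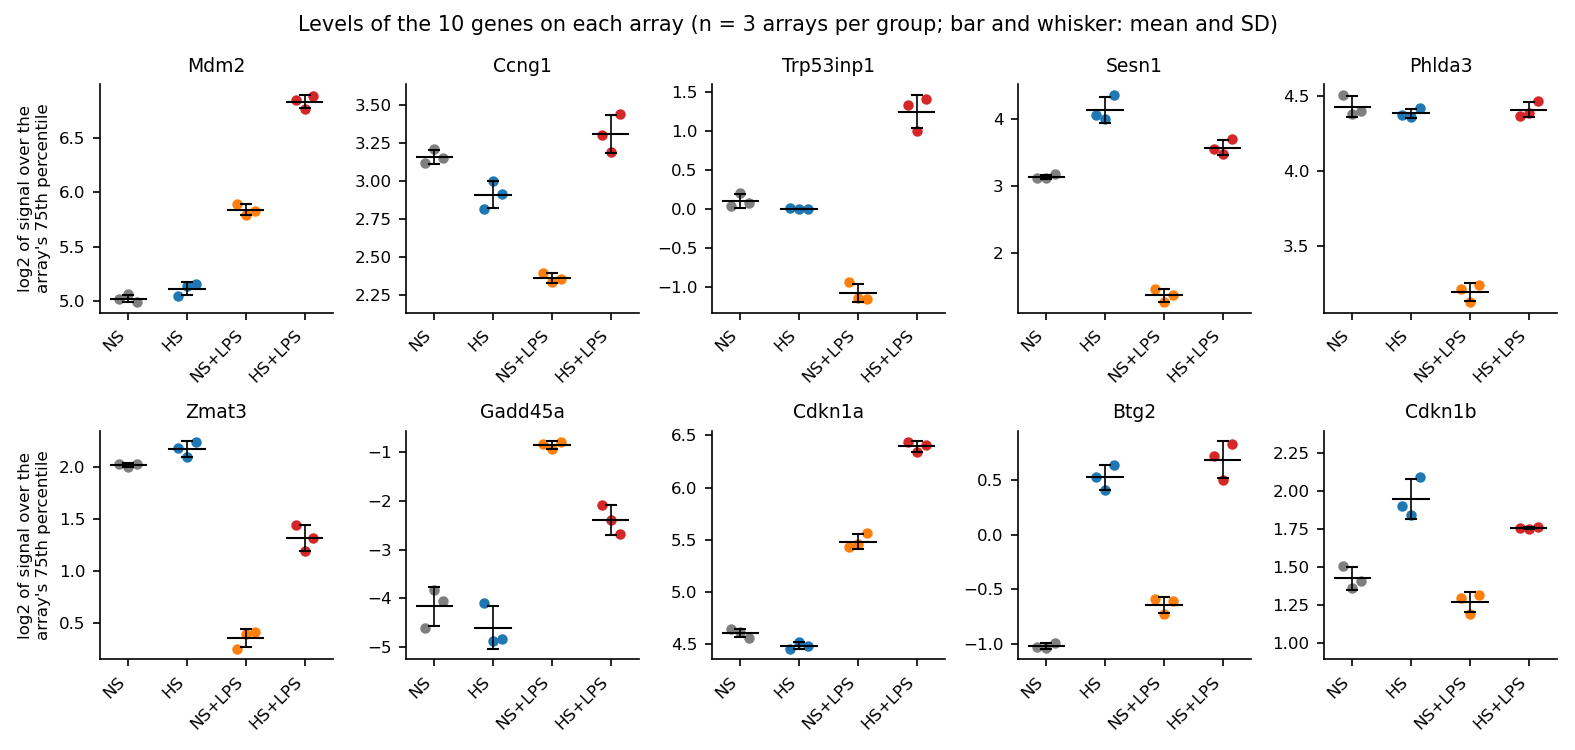
Level of each gene on each array, as log2 of the probe's signal over the array's 75th percentile, by condition; points are arrays, the bar is the mean and the whisker the SD (n = 3). HS+LPS lies above NS+LPS in every panel except that of Gadd45a, where the NS+LPS arrays are highest.

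**Figure D2:**
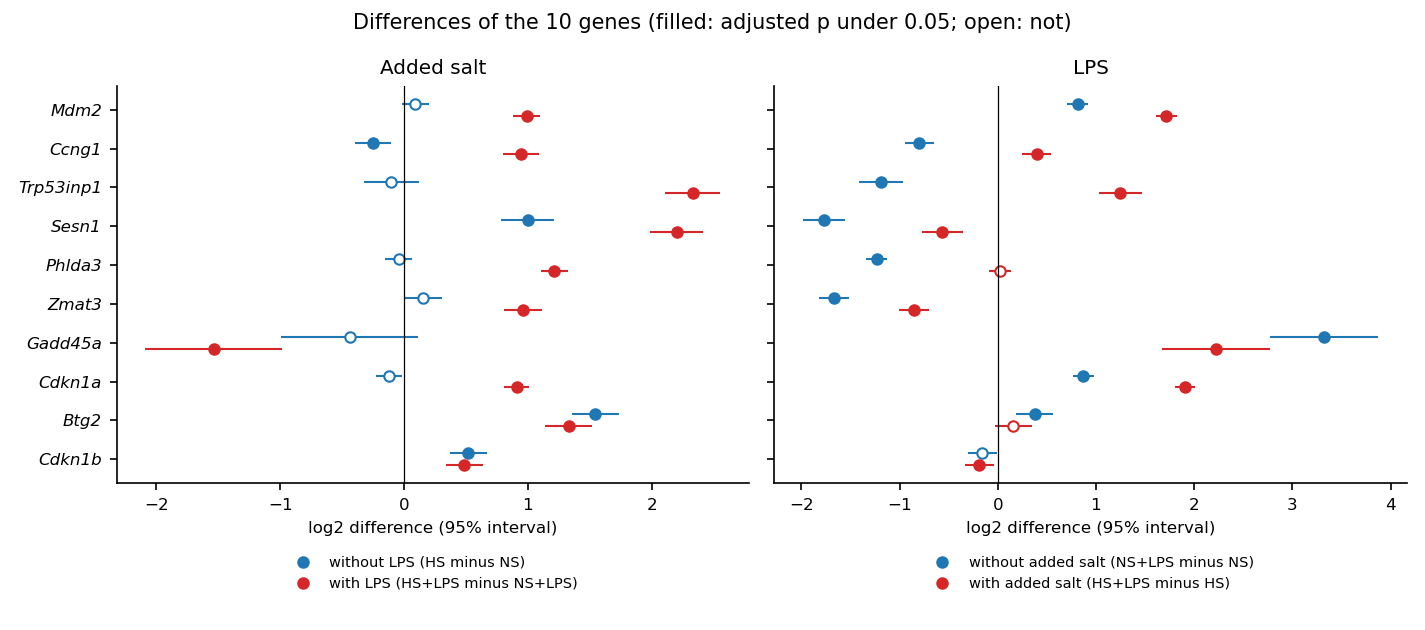
Log2 differences of the 10 genes for added salt (left) without and with LPS, and for LPS (right) without and with added salt, with 95% intervals; filled points passed an adjusted p of 0.05. On the left, 9 of the 10 red points lie above 0, from 0.49 for Cdkn1b to 2.33 for Trp53inp1, and Gadd45a lies at -1.54.

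Mdm2 encodes the ubiquitin ligase that marks p53 for degradation and is itself a p53 target, which closes a feedback loop. The Mdm2 signal, scaled, was 32.4, 33.4 and 31.9 on the NS arrays and 33.0, 35.2 and 35.8 on the HS arrays, and these ranges overlapped. LPS raised it to 59.4, 55.5 and 56.7, and with LPS and salt together it reached 115, 108 and 118. The 4 conditions thus formed 3 separate levels, with HS+LPS above NS+LPS and both above the pair without LPS. The log2 difference for salt with LPS was 0.99 (SE 0.048, adjusted p = 2.39e-07), a 1.99-fold rise, against 0.091 (SE 0.048, adjusted p = 0.170) without LPS.

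Ccng1, whose product recruits a phosphatase to Mdm2, moved in opposite directions with salt. On the same scale, Ccng1 was 8.68, 9.25 and 8.88 in NS and 7.05, 7.98 and 7.55 in HS, a log2 difference of -0.25 (SE 0.066, adjusted p = 0.0141). This small fall was no longer called without NS replicate 2 (adjusted p = 0.0544) or without HS replicate 1 (adjusted p = 0.0516). With LPS alone the values were 5.27, 5.04 and 5.11, and with LPS and salt 9.85, 9.11 and 10.8. Salt under LPS thus raised Ccng1 1.93-fold (log2 difference 0.95, SE 0.066, adjusted p = 1.99e-06), from the lowest of the 4 conditions to the highest, though 1 HS+LPS array lay within the range of NS.

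Trp53inp1 encodes a stress protein that takes part in p53-driven death and in autophagy, and it had the largest salt difference under LPS among the 10 genes. Its scaled signal was 1.03, 1.15 and 1.05 in NS and 1.00 on each of the 3 HS arrays, a log2 difference of -0.10 (SE 0.10, adjusted p = 0.460). LPS lowered it to 0.520, 0.453 and 0.448, and LPS with salt gave 2.52, 2.01 and 2.66. The HS+LPS arrays were above all the others and the NS+LPS arrays below them. The rise with salt under LPS was 5.04-fold (log2 difference 2.33, SE 0.10, adjusted p = 1.27e-07). A second Trp53inp1 probe had log2 differences in the same directions, 1.99 for salt with LPS and -0.25 for salt without.

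Sesn1 encodes sestrin 1, which restrains the growth kinase complex mTORC1 and limits oxidative stress. It rose with salt in both settings. Its scaled signal went from 8.66, 8.70 and 9.01 in NS to 16.6, 15.9 and 20.5 in HS, a 2.00-fold rise (log2 difference 1.00, SE 0.096, adjusted p = 3.56e-05). Under LPS it went from 2.76, 2.40 and 2.59 to 11.7, 11.1 and 12.9, a 4.60-fold rise (log2 difference 2.20, SE 0.096, adjusted p = 1.37e-07). The 4 conditions did not overlap, and HS+LPS stood above NS and below HS.

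Phlda3, which encodes a repressor of the kinase Akt, was level in NS, HS and HS+LPS and low only in NS+LPS. Phlda3 signal was 22.7, 20.8 and 21.0 in NS, 20.7, 20.5 and 21.4 in HS, and 20.6, 20.9 and 22.0 in HS+LPS, ranges that overlapped. In NS+LPS it was 9.29, 8.72 and 9.44. Salt under LPS raised it 2.32-fold (log2 difference 1.21, SE 0.049, adjusted p = 8.36e-08), while without LPS the difference was -0.043 (95% interval -0.15 to 0.066, adjusted p = 0.535).

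Zmat3 encodes a zinc finger protein that binds RNA and is a p53 target in mouse and human cells. The Zmat3 signal, scaled, was 4.08, 4.0 and 4.07 in NS and 4.54, 4.27 and 4.72 in HS, and with LPS it was 1.19, 1.32 and 1.33 without salt and 2.71, 2.28 and 2.50 with it. The HS arrays all lay above the NS arrays, but the difference of 0.15 (SE 0.069) missed the threshold (adjusted p = 0.106). Salt under LPS raised Zmat3 1.95-fold (log2 difference 0.96, SE 0.069, adjusted p = 2.28e-06), and HS+LPS still lay below both conditions without LPS.

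Gadd45a, which encodes a small protein that links stress to the p38 and JNK kinases and inhibits Cdk1, was the only one of the 10 to fall with salt under LPS. On the same scale, Gadd45a was 0.0407, 0.0702 and 0.0601 in NS and 0.0583, 0.0341 and 0.0348 in HS. These signals were at the limit of detection, being well above background on 2 of 3 NS arrays and 1 of 3 HS arrays, so the gene passed the filter through the LPS conditions and its differences against NS and HS are imprecise in size. LPS gave 0.561, 0.525 and 0.582, and LPS with salt 0.238, 0.191 and 0.155, on arrays that did not overlap. The log2 difference for salt with LPS was -1.54 (SE 0.25, adjusted p = 0.000497), a 2.90-fold fall, and that without LPS was -0.44 (SE 0.25, adjusted p = 0.199). With normexp background correction the fall under LPS was smaller, at -0.92.

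Cdkn1a, by its brightest probe, had scaled signals of 25.0, 24.6 and 23.7 in NS and 22.0, 23.0 and 22.4 in HS. They were 43.1, 44.0 and 47.3 with LPS alone and 86.7, 81.1 and 84.7 with LPS and salt. The last were the highest of the 4 conditions, and the order was the same as for Mdm2 except that HS lay slightly below NS. Salt under LPS raised Cdkn1a 1.88-fold (log2 difference 0.91, SE 0.046, adjusted p = 3.04e-07). Without LPS the difference was -0.12 (SE 0.046, adjusted p = 0.0648), which missed the threshold although the arrays did not overlap.

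Btg2, which encodes an antiproliferative partner of mRNA deadenylation enzymes, rose with salt by a like amount in both settings. Its scaled signal was 0.491, 0.487 and 0.504 in NS and 1.44, 1.33 and 1.56 in HS, a 2.92-fold rise (log2 difference 1.55, SE 0.085, adjusted p = 1.54e-06). Only 0.967% of all genes were called at least 2-fold higher in that comparison. Under LPS it was 0.664, 0.606 and 0.655 without salt and 1.65, 1.42 and 1.79 with it, a 2.51-fold rise (log2 difference 1.33, SE 0.085, adjusted p = 1.13e-06). The salt difference with LPS minus that without it was -0.22 (95% interval -0.48 to 0.050, adjusted p = 0.184).

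Cdkn1b showed the smallest of the rises called with LPS. Its scaled signal was 2.84, 2.56 and 2.65 in NS and 3.72, 3.58 and 4.26 in HS, and with LPS it was 2.45, 2.28 and 2.49 without salt and 3.37, 3.36 and 3.39 with it. The arrays with salt were higher than those without it in both settings. The log2 difference was 0.52 (SE 0.067, adjusted p = 0.000224) without LPS and 0.49 (SE 0.067, adjusted p = 0.000171) with it, and the difference between these was -0.031 (95% interval -0.24 to 0.18, adjusted p = 0.820). A second, dimmer Cdkn1b probe rose too, by 0.87 and 0.58.

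The salt differences with and without LPS were compared directly by the interaction term, the salt difference with LPS minus that without. It was called higher for 7 of the 10 genes and lower for 1, against 17.4% and 18.8% of all genes, 36.2% in all. The 7 were Trp53inp1, Phlda3, Sesn1, Ccng1, Cdkn1a, Mdm2 and Zmat3, with values from 0.81 for Zmat3 to 2.44 for Trp53inp1. The 1 was Gadd45a, at -1.10 (SE 0.35, adjusted p = 0.0338), a value that includes NS and HS signals near background. This last call was lost with cyclic loess normalization, without a filter on dim probes, with array weights, and without any 1 of 7 of the 12 arrays. Btg2 and Cdkn1b, which rose in both settings, had no called interaction.

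LPS alone, without added salt, divided the 10 genes. Gadd45a, Cdkn1a, Mdm2 and Btg2 rose, Sesn1, Zmat3, Phlda3, Trp53inp1 and Ccng1 fell, and Cdkn1b did not pass the test (-0.16, adjusted p = 0.0635), where 28.6% of all genes were called higher and 35.1% lower, 63.7% in all. The rises were 1.83-fold for Cdkn1a, 1.76-fold for Mdm2 and 1.30-fold for Btg2. For Gadd45a the log2 difference was 3.32 (SE 0.25) against NS signals near background, and 1.98 with normexp background correction. Gadd45a passed the filter only through the LPS conditions. With the filter on all 12 arrays it was not tested, and 3 of the genes were called higher, as were 3722 of all 12168. The falls were -1.77 for Sesn1, -1.66 for Zmat3, -1.23 for Phlda3, -1.19 for Trp53inp1 and -0.80 for Ccng1 on the log2 scale. On the slide that NS and NS+LPS share, the same 4 genes rose and the same 5 fell. The differences there were 0.83 for Cdkn1a, 0.82 for Mdm2 and 0.36 for Btg2, and from -0.79 for Ccng1 to -1.77 for Sesn1.

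With salt present, LPS raised 5 of the 10 genes and lowered 3, against 30.5% and 41.8% of all genes, 72.3% in all. On the log2 scale, Cdkn1a rose by 1.90, Mdm2 by 1.71, Trp53inp1 by 1.25 and Ccng1 by 0.40. Gadd45a rose by 2.22 against HS signals near background, and by 1.04 with normexp. With the filter on all 12 arrays, which leaves Gadd45a out, 4 of the genes were called higher, as were 3953 of all 12168. Zmat3 fell by 0.86, Sesn1 by 0.56 and Cdkn1b by 0.19 (adjusted p = 0.0274), and Btg2 (0.16, adjusted p = 0.113) and Phlda3 (0.023, adjusted p = 0.688) did not pass the test. The Cdkn1b call was lost in 7 of 24 alternatives, those with 1 array left out included. Its second probe did not pass either (-0.33, adjusted p = 0.0890). Trp53inp1 and Ccng1 were lower with LPS in the medium without added salt and higher with LPS in the medium with it. These comparisons share their HS+LPS and NS+LPS arrays with those above.

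Cdkn1a is read by 3 probes, and they did not move alike with LPS. The upstream probe, annotated to transcript variant 2 (NM_001111099), lies on mm9 at chr17:29227986-29228045, and the brightest, annotated to variant 1 (NM_007669), at chr17:29237377-29237436, 9391 bases further along. The upstream probe's scaled signal was 2.83, 2.72 and 2.80 in NS and 1.75, 1.72 and 1.79 in NS+LPS, a fall of -0.67 (SE 0.049, adjusted p = 7.47e-07). On the same arrays the brightest probe rose by 0.87 (SE 0.047, adjusted p = 6.59e-08). A middle probe, at chr17:29235299-29235358 and annotated to ENSMUST00000122348, stayed between (0.21, SE 0.091, adjusted p = 0.0654). Under LPS with salt the upstream probe reached 5.41, 5.01 and 5.44. All 3 probes rose with salt under LPS, by 1.59 upstream, 0.73 in the middle and 0.91 at the brightest probe. With salt alone their directions differed and none was called. The log2 differences were 0.13 upstream (adjusted p = 0.0661), -0.029 in the middle (adjusted p = 0.838) and -0.12 at the brightest probe (adjusted p = 0.0730). The mean of the 3 probes gave a log2 difference of 0.14 for LPS without salt. For LPS with salt it gave 1.22, where the brightest probe gave 1.90, the upstream probe 0.80 and the middle one 0.97. The probes were not matched to the promoter windows above, which are on another build.

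**Figure D3:**
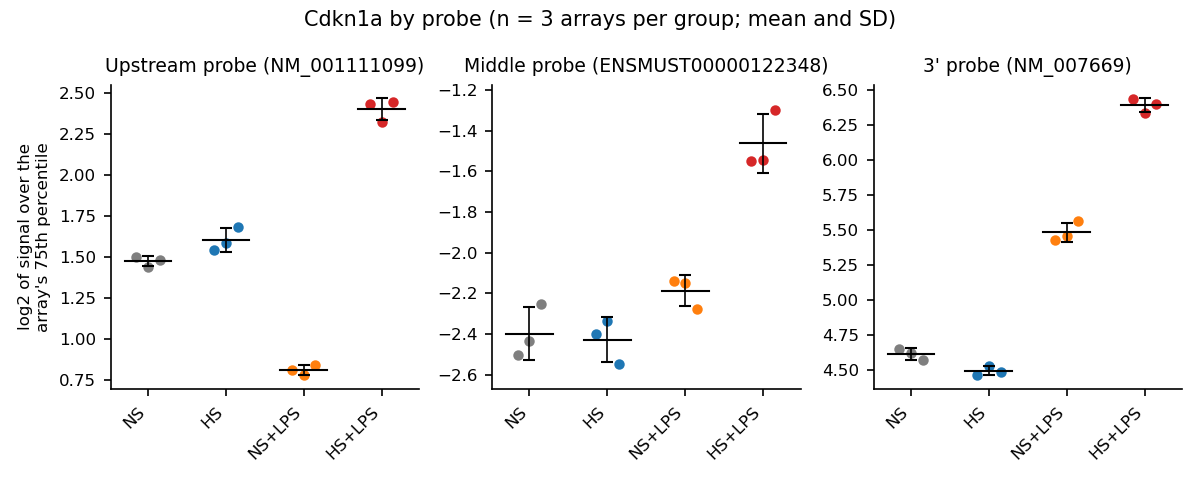
Level of the 3 Cdkn1a probes on each array, as log2 of signal over the array's 75th percentile, by condition (mean and SD, n = 3); each panel has its own axis, and levels of different probes are not comparable. With LPS alone the upstream probe fell by 0.67 and the probe of NM_007669 rose by 0.87, and all 3 were highest in HS+LPS.

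The pattern of Trp53inp1 over the 12 arrays was most like that of Rhod (Pearson r = 0.991), Ddit4 (0.970), Notch4 (0.959) and 6720407P12Rik (0.959), among 3019 genes with an SD of at least 0.5. Ddit4 encodes a stress-induced inhibitor of mTORC1. Its log2 level was 4.31 ± 0.028 for NS, 4.29 ± 0.10 for HS, 3.73 ± 0.045 for NS+LPS and 5.32 ± 0.14 for HS+LPS (SD, n = 3). In all, 27 genes had r over 0.9 with Trp53inp1. Cdkn1a was most like Slc39a4 (0.997), Xylt1 (0.995), Dnajc18 (0.994), Tnfrsf10b (0.992) and Pgm2 (0.992), and 367 genes had r over 0.9 with it. Among the 10 genes themselves, Mdm2 and Cdkn1a, the latter by its brightest probe only, had r = 0.990 over the 12 arrays. Gadd45a and Zmat3 had r = -0.968, a value that includes Gadd45a signals near background in NS and HS. These are descriptions over arrays that fall into 4 conditions.

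The transcript of p53 itself, Trp53, had small differences. Its log2 difference with salt was 0.21 without LPS (SE 0.075, adjusted p = 0.0466) and 0.33 with it (SE 0.075, adjusted p = 0.00387), and with LPS alone -0.29 (SE 0.075, adjusted p = 0.00601). Mdm4, the partner of Mdm2 in restraining p53, had differences of 0.12, -0.15 and -0.20 in the same comparisons and passed none of them. For LPS with salt present, Mdm4 was called lower (-0.48, SE 0.14, adjusted p = 0.0123) and Trp53 did not pass (-0.17, adjusted p = 0.0561). Among 12 measured genes of the list of p53 and its regulators, Trp53 included, 7 rose and none fell with salt without LPS, where 18.2% and 18.8% of all genes did. With salt under LPS 6 rose and 2 fell, and with LPS alone 3 rose and 6 fell, against 28.6% and 35.1% of all genes in the latter. Their median for salt under LPS was 0.14. Ppm1d, a p53-induced phosphatase that turns p53 signalling off, rose by 0.49 there and Chek1, a checkpoint kinase, fell by 0.53. Chek1 was dim, with mean scaled signals of 0.107 in NS+LPS and 0.0741 in HS+LPS, so the size of its fall is imprecise.

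Of 9 measured p53-linked death genes, 6 rose and none fell with salt under LPS, with a median of 0.30. Tnfrsf10b, a death receptor, rose by 0.63, Ei24 by 0.51, and Bax, the pore-forming protein of mitochondrial death, by 0.41, while Fas (-0.13) did not pass the test. Without LPS, 1 of the 9 rose and 4 fell with salt, against 18.2% and 18.8% of all genes. LPS alone raised Fas by 1.68 and Tnfrsf10b by 0.82. Of 8 measured p53-linked repair and metabolism genes, 4 rose and none fell with salt under LPS, with Polk, a DNA polymerase that copies past damage, at 1.30 and a median of 0.23.

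The other arrest and antiproliferative genes were mixed with salt under LPS, with 5 of 12 higher, 5 lower and a median of 0.032. Btg1, the close relative of Btg2, rose by 1.57, and Tob1, of the same family, rose by 1.23. Without LPS, Btg1 rose by 1.22. Plk2, a stress-responsive polo-like kinase, fell with salt by 1.74 without LPS and by 0.97 with it, after a rise of 3.83 with LPS alone. Its mean scaled signal was 0.103 in NS and 0.0310 in HS, where that of Gadd45a was 0.0570 and 0.0424. The Plk2 differences against these dim NS and HS signals are therefore imprecise in size. The other Gadd45 family members, Gadd45b and Gadd45g, fell by 0.88 each with salt under LPS, as Gadd45a fell. Both also fell with salt without LPS (log2 differences -0.65 and -0.71), where Gadd45a did not pass the test. Of 12 measured cyclins and cyclin-dependent kinases, 3 rose and 5 fell with salt under LPS, with a median of -0.14. Cdk1, the kinase of mitotic entry, fell by 0.82, Ccna2 by 0.68 and Ccnb2 by 0.59. The Cdk1 signal was dim, with scaled means of 0.187 in NS+LPS and 0.107 in HS+LPS. The counts of these lists for salt under LPS stand beside 26.2% of all genes called higher and 31.4% lower, with a median of -0.043.

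**Figure D4:**
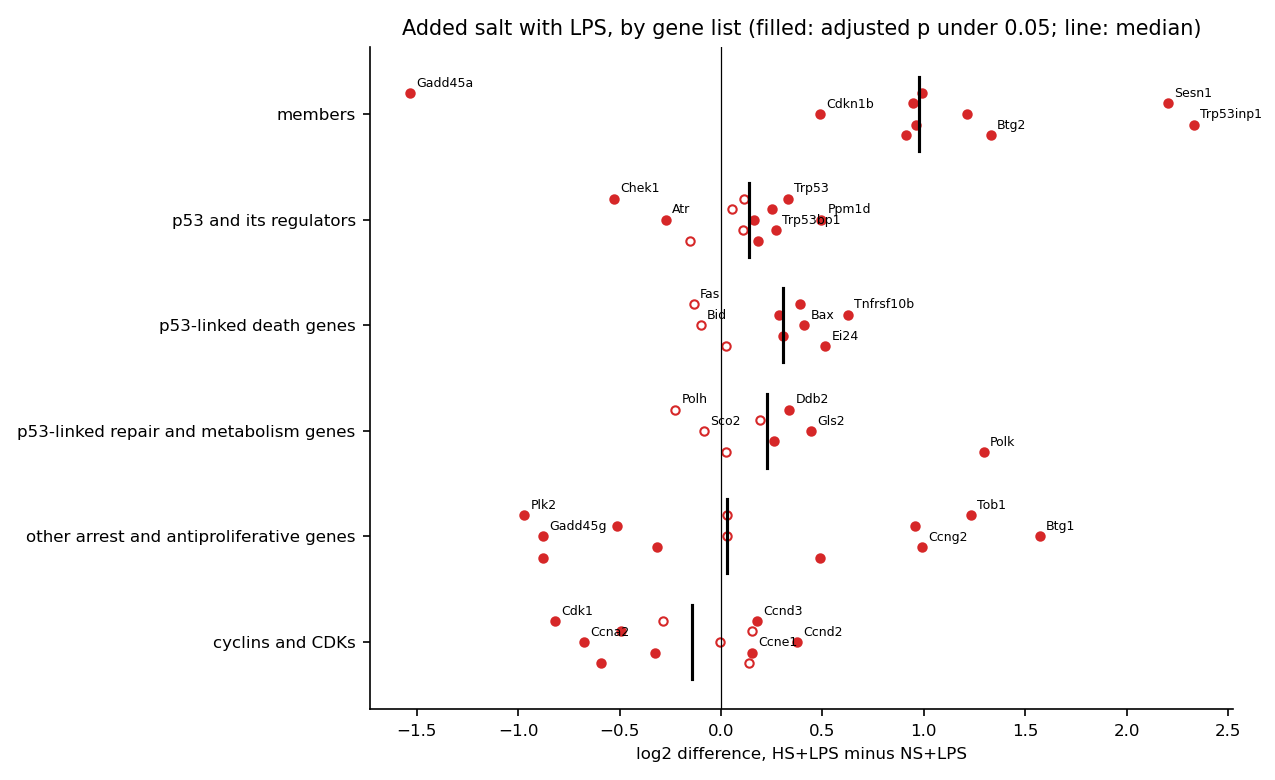
Log2 difference for added salt with LPS of each measured gene in 6 lists, the upper being the 10 genes described here; filled points passed an adjusted p of 0.05, the line is the list's median and the outermost genes are named. The median of the 10 genes is 0.98, and those of the other lists lie between -0.14 and 0.30. The 10 genes and the lists were chosen with earlier results of these data known.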

How the data were processed

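Gene expression was measured on 12 arrays of 1 colour, 3 for each of 4 conditions, grouped by the labels. The deposited files hold the scanner output of each array, with spot intensity (background-subtracted processed signal) and spot flags, made with Agilent Feature Extraction 10.7.3.1, per the file headers. The deposited value table holds the authors' processed values of the same arrays on a positive intensity scale; each column ranked spots as that array's processed signal did (lowest Spearman correlation 0.99996) and had a median from 28.804 to 28.81, and its normalization is not given in the sources used here.

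Control spots and outlier flags were left out and repeat spots averaged. Each processed signal was divided by its array's 75th percentile and put on the log2 scale. Probes had to pass the scanner's background flag on every array of 1 or more groups, and each gene was read by its brightest probe, which left 13860 genes. limma 3.58.1 (R 4.3.3) fitted 4 group means over all 12 arrays (8 residual degrees of freedom), with 2-sided tests and Benjamini-Hochberg adjustment over all genes tested, called at 0.05; steps were tested on simulated data. Probe values come from the same fit over 18846 probes. Gene names are those of the array files, and promoters are from RefSeq (GRCm38.p6).

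The 10 genes, the wider lists and the tests were chosen with earlier results of these data known. The text names the 10 genes, up to 4 called genes with the largest difference per list and comparison, Trp53, Mdm4, and the 5 genes most like each of Trp53inp1 and Cdkn1a, 1 of which is not reported here; Gadd45b, Gadd45g, Fas under salt with LPS and the family relations were chosen after their values were seen. The alternatives tried were background correction, normalization, the deposited values, the filter, the probe rule, the fit, the slide, and leaving out each array.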

Additional observations from a re-analysis of the deposited data

Results flagged for a closer look

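The salt difference with LPS differed from that without LPS, by the interaction term of limma with Benjamini-Hochberg adjustment, for 8 of the 10 genes. By the same test, the interaction was called higher for 17.4% of all genes and lower for 18.8%, 36.2% in all. It was 2.44 for Trp53inp1 (SE 0.14, adjusted p = 3.6e-06), 1.26 for Phlda3 (SE 0.069, adjusted p = 3.13e-06), 1.21 for Sesn1 (SE 0.14, adjusted p = 0.000156) and 1.20 for Ccng1 (SE 0.094, adjusted p = 2.06e-05) on the log2 scale. It was 1.03 for Cdkn1a (SE 0.065, adjusted p = 5.72e-06), 0.90 for Mdm2 (SE 0.068, adjusted p = 1.64e-05), 0.81 for Zmat3 (SE 0.097, adjusted p = 0.000237) and -1.10 for Gadd45a (SE 0.35, adjusted p = 0.0338). The Gadd45a value includes NS and HS signals near background, and its call was lost in 11 of 23 alternatives, those with 1 array left out included. In each of the 7 positive cases every HS+LPS array lay above every NS+LPS array, and for Gadd45a every one lay below. Arrays of HS+LPS and NS+LPS also did not overlap for 64.2% of all genes. In these 8 cases HS+LPS cannot be told apart from its slide and scan day.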

How the results depend on the processing

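With salt under LPS, 9 of the 10 genes were called higher, and 7 had a positive interaction, under each alternative that could be run for them and without any 1 array. Slide as a fixed block and the shared slide alone give no value for any comparison with HS+LPS, which lies on a slide of its own. Slide as a random block could be fitted, with an estimated correlation of -0.018. For the same reason that fit cannot separate HS+LPS from its slide. Of 635 values under the alternatives, 612 kept their direction and side of the threshold, as did 580 of 600 with 1 array left out. The count of genes lower with salt alone was 2 with normexp, quantile, cyclic loess, the deposited values, a variance trend or slide as a fixed block, 1 with slide as a random block, 3 with array weights, and from 0 to 2 with 1 array left out. The count with a negative interaction, Gadd45a alone, was 0 with cyclic loess, without the filter, with the filter on all 12 arrays, with array weights and in the replicate block fit, and from 0 to 1 with 1 array left out. With the filter on all 12 arrays Gadd45a was not tested, so the count lower with salt under LPS was 0. The value for Gadd45a with salt alone turned to 0.0092 with normexp. The interaction of Cdkn1b turned to 0.011 with cyclic loess and ranged from -0.083 to 0.043 with 1 array left out, and Phlda3 for LPS with salt ranged from -0.0057 to 0.042 with 1 array left out; none of these was called, and the cause was not tested. With normexp, Gadd45a was 1.98 for LPS alone and 1.04 for LPS with salt. Replicate numbers did not pair the arrays (same-number correlations from -0.079 to 0.12), and the replicate block moved the count of all genes called for salt under LPS from 7975 to 7620; Gadd45a's interaction had an adjusted p of 0.0556 there. Normalization moved the share of called genes that were higher from 42.2% to 54.4% (cyclic loess, LPS with salt) and, for the interaction, from 48.0% to 58.1% (quantile), 61.5% (cyclic loess) and 58.2% (deposited values); cyclic loess moved the median of all genes for LPS with salt from -0.11 to 0.032. Promoter shares were 8.36% for a half-site, 0.0731% for a full site and 1.09% with 1 mismatch. Dim signal limits Gadd45a in NS and HS.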
